A study of Rattus norvegicus and Bos taurus with 12 samples.

Results

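Cardiac fibroblasts (Cfib) of calves with pulmonary hypertension (PH) were compared with those of control calves (CO) across all 2115 genes of the deposited Cfib table, which is 6 of the 12 samples of the series, 3 CO Cfib and 3 PH Cfib libraries. The fibroblasts came from the right ventricle of neonatal calves, PH calves having been kept under hypobaric hypoxia and CO calves at the ambient altitude of Denver, and were low-passage cultures held in serum-free medium. The sample labels name serum of cows at high or low altitude as the treatment instead, and the groups are called here as in the paper. No allele, transgene or drug is given for either group, and the fibroblasts were taken from 3 animals a group. The labels do not tie each library to an animal, so every test measures the spread between 3 libraries a group.

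Right ventricular fibroblasts make and turn over the matrix between the myocytes. Under pressure overload they can become myofibroblasts, which assemble contractile actin bundles and secrete large amounts of protein. Fibroblasts also take part in innate immunity, since they present peptides on MHC class I, respond to interferon and Toll-like receptor ligands and make complement. Their membranes need desaturated fatty acids and cholesterol, whose synthesis is set by the SREBP transcription factors. The classes below were chosen to describe what changed beside matrix, cell cycle and growth factor genes.

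The table holds only genes that the authors had selected for a difference between these same groups, so a count of called genes is a description and not independent evidence. In each of the 2115 genes, every library of one group lay above every library of the other. With limma on log2(value + 1), 2063 genes (97.5%) passed an adjusted p of 0.05, 1230 higher (58.2%) and 833 lower (39.4%) in PH Cfib. The classes were therefore read mainly by direction, by size, and against all listed genes, of which 1262 (59.7%) were higher and whose median log2 fold change was 0.33. A rise with a log2 fold change of at least 1 was called in 417 genes (19.7%) and a fall of that size in 303 (14.3%). All fold changes are PH Cfib minus CO Cfib on the log2(value + 1) scale, which understates the change of low genes, and values are the deposited signal, which is scaled by gene length and library. An exact permutation test of 3 against 3 libraries cannot go below p = 0.1 (two-sided).

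The libraries were not alike in spread. The median coefficient of variation of a gene was 5.01% among PH Cfib and 13.7% among CO Cfib, and CO Cfib 3 stood apart. In 106 genes this library was under 1/2 of both other CO libraries, and 105 of these were higher in PH Cfib. Over these 106 genes the median was 1.43 with and 0.98 without CO Cfib 3, and CO Cfib 3 is pointed out beside such genes. A rescaling of the libraries by their median of ratios to all listed genes lowered a typical log2 fold change (median shift −0.27), leaving a median of 0.07 and 53.9% of genes higher. Its factors come from these selected genes alone, of which 59.7% were higher, so it lowers the median by construction. It cannot show which scale is right. Under this rescaling 3 classes with small medians turned from higher to lower, namely redox, chromatin and vesicle genes, and the other 31 kept their sign.

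**Figure D1:**
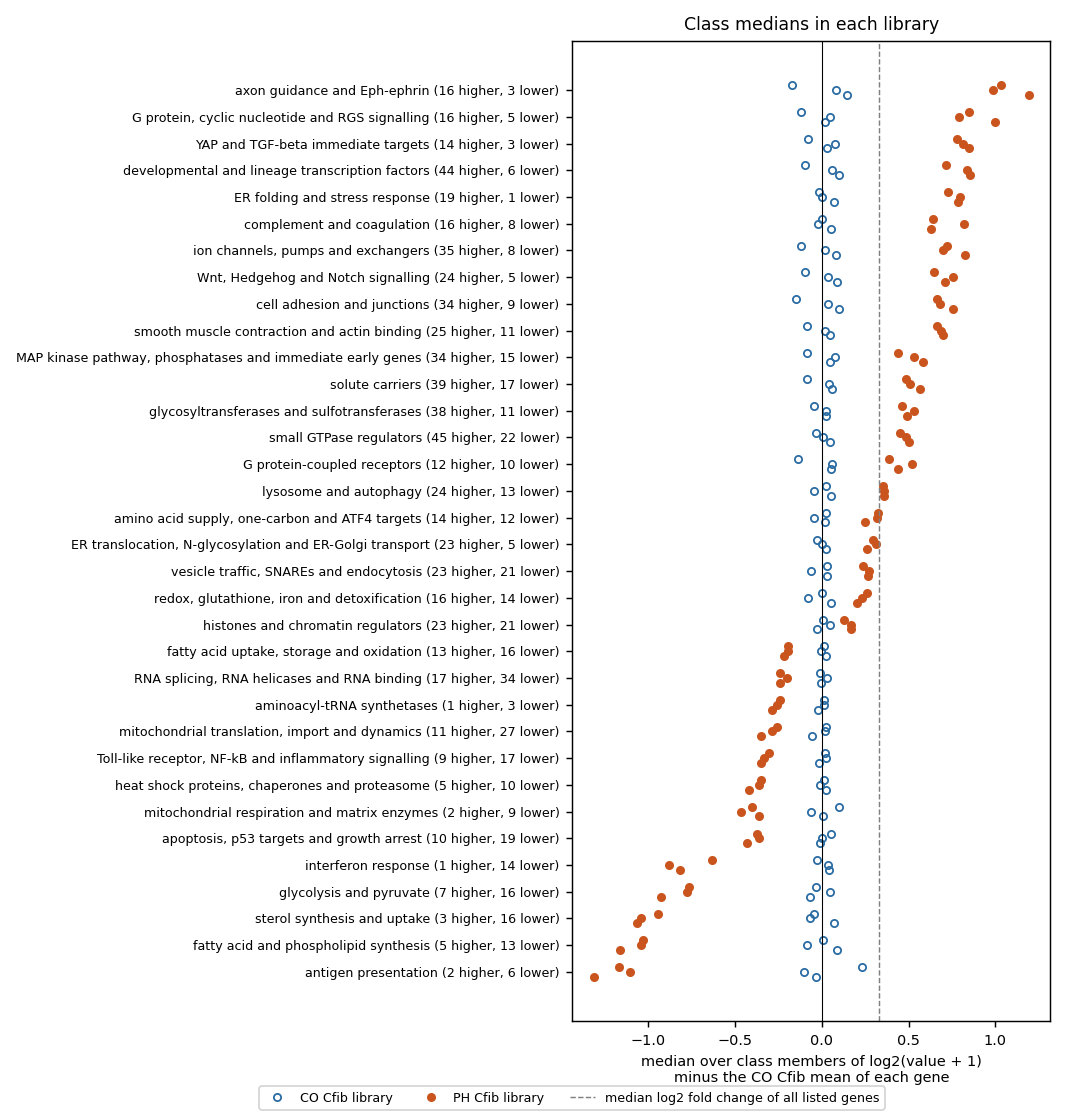
For each of 34 gene classes, each point is 1 library (CO Cfib open, PH Cfib filled, libraries 1 to 3 from bottom to top), placed on the horizontal axis at the median over the class members of log2(value + 1) minus the CO Cfib mean of the gene. The dashed line is the median log2 fold change of all listed genes, 0.33. Antigen presentation, lipid synthesis and sterol genes lie lowest in the PH libraries and axon guidance genes highest.

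Lipid synthesis genes were mostly lower in PH Cfib. Of 38 genes for fatty acid and phospholipid synthesis, 18 were listed, 5 rose and 13 fell, with a median log2 fold change of −1.09 against 0.33 for all listed genes. Falls of at least 1 were called in 10 of the 18, against 14.3% of all genes. The plot of class medians shows the same in each PH library, from −1.16 to −1.03 relative to CO Cfib. FADS2, the delta-6 desaturase that begins the synthesis of polyunsaturated fatty acids, was at 235, 275 and 189 in CO Cfib and 14.6, 16.8 and 18.7 in PH Cfib (log2 fold change −3.72, SE 0.15, adjusted p = 5.41e-06 from limma). SCD, which makes monounsaturated fatty acids, was at 321, 311 and 247 in CO Cfib and 49.4, 47.9 and 52.1 in PH Cfib (log2 fold change −2.52, SE 0.11). ACSS2, which makes cytosolic acetyl-CoA from acetate, was at 74.7, 61.8 and 72.2 in CO Cfib and 11.3, 11.6 and 11.8 in PH Cfib (log2 fold change −2.48, SE 0.08). For each of the 3 genes the highest PH library was far below the lowest CO library. Among the members that rose were the elongase of long saturated chains ELOVL7 at 5.54, 3.04 and 3.7 in CO Cfib and 12.2, 10.9 and 10.6 in PH Cfib (log2 fold change 1.29, SE 0.18), the elongase ELOVL4 with a log2 fold change of 0.55 and the mitochondrial acetyl-CoA synthetase ACSS1 with 0.49. With the median of ratios that of ELOVL4 became 0.30, and ACSS1 did not pass (0.26, adjusted p = 0.105 from limma). ELOVL5, which lengthens polyunsaturated chains, moved the other way from ELOVL7, with a log2 fold change of −1.87.

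Of 33 sterol genes 19 were listed, and 16 fell while 3 rose (median log2 fold change −1.01). SREBF1, the gene of the transcription factors SREBP-1a and SREBP-1c, was at 73.1, 84.1 and 66.7 in CO Cfib and 17.7, 17.2 and 18.1 in PH Cfib (log2 fold change −2.01, SE 0.09, adjusted p = 7.78e-06 from limma). INSIG1, which holds SREBP precursors in the endoplasmic reticulum (ER) and is itself an SREBP target, was at 76, 73.3 and 86.5 in CO Cfib and 27.2, 26.3 and 26.3 in PH Cfib (log2 fold change −1.53, SE 0.07). TMEM97, a sterol-regulated membrane protein, was at 109, 107 and 143 in CO Cfib and 28.3, 30.1 and 32.7 in PH Cfib (log2 fold change −1.93, SE 0.12). In these 3 genes the PH libraries were within a narrow band well under all CO libraries. The 3 genes that rose are not sterol enzymes. SCAP escorts SREBP out of the ER and was at 32.6, 30.9 and 17.9 in CO Cfib and 49.9, 48.5 and 45.4 in PH Cfib (log2 fold change 0.84, SE 0.22), with the lowest value in CO Cfib 3. ERLIN2 and ERLIN1, ER membrane proteins of sterol-regulated degradation, had log2 fold changes of 0.63 and 0.26, which became 0.34 and −0.01 with the median of ratios.

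Genes for the uptake, storage and oxidation of fatty acids moved in both directions. Of 71 genes 29 were listed, 13 rose and 16 fell (median log2 fold change −0.19). FABP3, the fatty acid binding protein of heart and muscle, was at 743, 878 and 1399.9 in CO Cfib and 34.2, 31.6 and 43.6 in PH Cfib (log2 fold change −4.71, SE 0.25, adjusted p = 1.23e-05 from limma). The acyl-CoA synthetase ACSL6 was at 61.8, 54 and 36.4 in CO Cfib and 6.52, 8.96 and 8.8 in PH Cfib (log2 fold change −2.49, SE 0.21), and ACSL3, an enzyme of lipid droplets and the ER, had a log2 fold change of −1.94. The fatty acid transporter CD36 moved the other way and was at 3.68, 4.53 and 2.38 in CO Cfib and 23, 20.0 and 18.9 in PH Cfib (log2 fold change 2.28, SE 0.19). FABP5, of the same protein family as FABP3, was at 51.4, 56.1 and 90.6 in CO Cfib and 139, 127 and 135 in PH Cfib (log2 fold change 1.05, SE 0.20), the highest CO value being that of CO Cfib 3, and ANGPTL4, an inhibitor of lipoprotein lipase, had a log2 fold change of 1.47.

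Genes of glycolysis and pyruvate metabolism, with transporters and gluconeogenic enzymes counted among them, were mostly lower. Of 50 genes for glycolysis and pyruvate 23 were listed, 16 fell and 7 rose, and 8 fell by at least 1 (median −0.79). SLC16A3, the lactate exporter MCT4, was at 25.7, 44.3 and 38.2 in CO Cfib and 1.88, 2.52 and 2.92 in PH Cfib (log2 fold change −3.41, SE 0.22, adjusted p = 2.67e-05 from limma). The glucose transporter SLC2A1 was at 30.6, 53.7 and 34.8 in CO Cfib and 7.68, 8.89 and 8.08 in PH Cfib (log2 fold change −2.1, SE 0.20). Both were lowest in CO Cfib 1 among the control libraries, and still several times higher there than in any PH library. The gluconeogenic fructose bisphosphatases fell with them, FBP2 at 14.3, 18.5 and 24.6 in CO Cfib and 1.33, 2.52 and 2.7 in PH Cfib (log2 fold change −2.66, SE 0.25) and FBP1 with a log2 fold change of −2.22. Pyruvate carboxylase (PC), which feeds pyruvate into oxaloacetate, rose and was at 35, 27.6 and 26.6 in CO Cfib and 69.9, 62.7 and 60.6 in PH Cfib (log2 fold change 1.1, SE 0.12). Smaller rises were 0.57 for glycogenin GYG1 and 0.38 for the sugar-responsive transcription factor MLX. With the median of ratios that of GYG1 became 0.29, and MLX did not pass (0.11, adjusted p = 0.298 from limma).

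Mitochondrial classes shifted down by small amounts. Among 11 listed genes of respiration and matrix enzymes, 9 fell and 2 rose (median log2 fold change −0.38), none of the falls reaching 1. SQRDL, which oxidizes sulfide, had a log2 fold change of −0.76, sulfite oxidase SUOX one of −0.64 and the complex I assembly factor NDUFAF7 one of −0.50. Among 38 listed genes of mitochondrial translation, import and dynamics, 26 fell, 9 rose and 3 did not pass (median −0.29). The mitophagy receptor BNIP3 was at 128, 212 and 154 in CO Cfib and 44.7, 51 and 50.8 in PH Cfib (log2 fold change −1.71, SE 0.18), the mitochondrial adenylate kinase AK4 at 31.5, 49.9 and 36.9 in CO Cfib and 9.63, 12.6 and 10.7 in PH Cfib (log2 fold change −1.74, SE 0.18), and the mitochondrial fission regulator MTFR2 had a log2 fold change of −2.34. The ornithine carrier SLC25A15 had the largest rise (1.19, and 0.81 without CO Cfib 3, where it was at less than 1/2 of the other CO values).

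**Figure D2:**
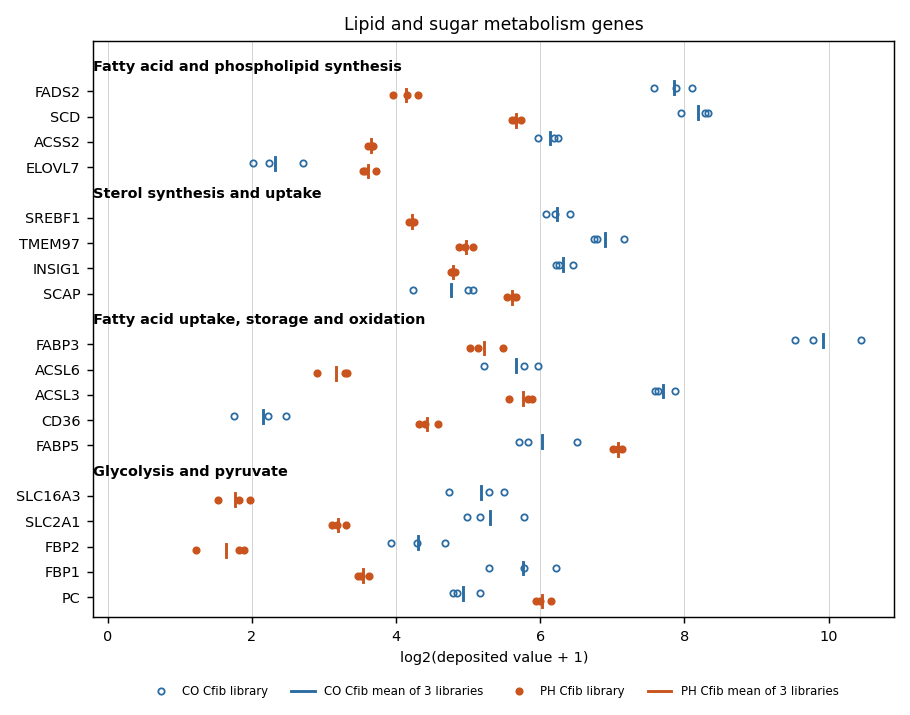
Each row is a gene of lipid or sugar metabolism, and the horizontal axis gives log2(deposited value + 1). Points are single libraries and vertical ticks the means of 3 libraries, open blue for CO Cfib and filled orange for PH Cfib. FADS2 (log2 fold change −3.72), FABP3 (−4.71) and SLC16A3 (−3.41) are shifted furthest to lower values, while CD36 (2.28) and ELOVL7 (1.29) are shifted to higher ones.

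ER genes were mostly higher on the deposited scale. Of 64 ER folding and stress genes 20 were listed, 19 rose and 1 fell (median log2 fold change 0.77). Only 2 of these rises reached 1. FKBP10, a prolyl isomerase that helps collagen fold, was at 114, 101 and 98.5 in CO Cfib and 213, 224 and 216 in PH Cfib (log2 fold change 1.05, SE 0.07, adjusted p = 3.86e-05 from limma). CREB3L2, an ER stress transducer of the secretory pathway, was at 16.4, 17.1 and 2.1 in CO Cfib and 36.7, 34 and 31.6 in PH Cfib (log2 fold change 1.82, SE 0.66), and CO Cfib 3 was far below the other controls. Without that library its log2 fold change was 0.98 (adjusted p = 2.34e-05 from limma), and with any 1 PH library left out it did not pass (adjusted p from 0.069 to 0.0816), nor did it with the median of ratios (0.0652). The calcium-binding protein NUCB1 had a log2 fold change of 0.88. The single fall was VCP, the ATPase that extracts misfolded proteins, at 162, 179 and 168 in CO Cfib and 135, 144 and 143 in PH Cfib (log2 fold change −0.27, SE 0.06).

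Of 116 genes for ER translocation, N-glycosylation and ER-Golgi transport 28 were listed, 22 rose, 3 fell and 3 did not pass (median 0.29). With the median of ratios, whose factors come from the selected genes alone, 15 of the 28 were higher and 13 lower. The direction of this class thus differs between the 2 scales, and which of them is right was not tested. DDOST, a subunit of the oligosaccharyltransferase, was the one member past 1, with a mean of 97.1 ± 10.5 in CO Cfib and 205 ± 6.55 in PH Cfib (SD, n = 3, log2 fold change 1.08, SE 0.09). The cargo receptor LMAN1 had a log2 fold change of 0.82 and the Golgi matrix protein GOLGA2 one of 0.68. The falls were smaller, −0.33 for the glucosyltransferase ALG10, −0.24 for the ER syntaxin STX18 and −0.18 for SRP54 of the signal recognition particle. STX18 did not pass without CO Cfib 1, CO Cfib 2, PH Cfib 1 or PH Cfib 3, nor SRP54 without PH Cfib 1 or PH Cfib 2 (adjusted p up to 0.111 and 0.0884).

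Lysosome and autophagy genes moved in both directions, in shares near those of all listed genes. Of 111 genes 37 were listed, 23 called higher and 13 called lower (median 0.37, against 0.33 for all listed genes). By direction alone 64.9% were higher, against 59.7% of all genes. The summed value of the members was lower in PH Cfib, running from 4878 to 5340.0 in CO Cfib and from 3454 to 3594 in PH Cfib. Most of the fall of the sum came from CTSK and NPC2, whose values are given below. IGF2R, the receptor that carries mannose 6-phosphate enzymes to the lysosome and clears IGF2, was at 66.3, 55.8 and 26.1 in CO Cfib and 274, 258 and 238 in PH Cfib (log2 fold change 2.45, SE 0.32, and 2.06 without CO Cfib 3). The lysosomal phospholipase PLA2G15 and the carboxypeptidase CPQ had log2 fold changes of 1.18 and 1.04. Among the falls, NPC2, which hands cholesterol out of the lysosome, was at 484, 517 and 764 in CO Cfib and 182, 197 and 204 in PH Cfib (log2 fold change −1.57, SE 0.18). CTSK, the collagen-degrading cathepsin K, was at 1866, 2106 and 2039 in CO Cfib and 889, 967 and 941 in PH Cfib (log2 fold change −1.1, SE 0.11). OPTN, an autophagy receptor, had a log2 fold change of −1.13.

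Genes of antigen presentation had the lowest median of the 34 classes, −1.2. Of 33 genes 8 were listed, 6 of which fell and 2 of which rose, with 5 falls of at least 1. JSP.1, a bovine MHC class I heavy chain gene, was at 437, 361 and 553 in CO Cfib and 75.1, 76.4 and 84.7 in PH Cfib (log2 fold change −2.48, SE 0.16, adjusted p = 2.52e-05 from limma). BOLA-A, another class I gene, was at 289, 240.2 and 348 in CO Cfib and 99, 112 and 124 in PH Cfib (log2 fold change −1.37, SE 0.15), and the non-classical BOLA-NC1 was at 153, 129 and 199.9 in CO Cfib and 37, 36.6 and 47.4 in PH Cfib (log2 fold change −1.95, SE 0.18). CO Cfib 3 was the highest library for all 3. These genes are close copies of each other, so how their reads were split between them is uncertain. FCGRT, the neonatal Fc receptor, which has an MHC class I fold but carries IgG, was at 69.8, 79.1 and 89.6 in CO Cfib and 101, 108 and 104 in PH Cfib (log2 fold change 0.39, SE 0.10), and with the median of ratios its rise did not pass (0.11, adjusted p = 0.38 from limma). The other rise was CD74, the MHC class II invariant chain, at low values. It was at 0.028, 0.0893 and 0.298 in CO Cfib and 0.847, 1.21 and 1.02 in PH Cfib (log2 fold change 0.83, SE 0.12, and 0.73 with the median of ratios).

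Interferon-responsive genes were lower too. Of 79 genes only 15 were listed, 14 fell and 1 rose (median −0.73). LGALS9, the lectin galectin-9, was at 53.8, 38.8 and 52.9 in CO Cfib and 8.27, 6.99 and 10.1 in PH Cfib (log2 fold change −2.39, SE 0.17), and GBP5, an interferon-induced GTPase, was at 12, 9.98 and 14.4 in CO Cfib and 2.61, 3.23 and 3.54 in PH Cfib (log2 fold change −1.66, SE 0.15). RTP4, a receptor transport protein induced by interferon, was at 64.8, 53.2 and 37.8 in CO Cfib and 15.7, 18.1 and 20.4 in PH Cfib (log2 fold change −1.45, SE 0.20). PH Cfib 1 was the lowest library for RTP4 and GBP5. The one rise was the ubiquitin ligase TRIM56 at 16.1, 15.8 and 11.3 in CO Cfib and 33.6, 34.7 and 35.1 in PH Cfib (log2 fold change 1.22, SE 0.13). The class median in single PH libraries ran from −0.88 to −0.63.

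Of 84 Toll-like receptor, NF-kB and inflammatory genes 26 were listed, 17 fell and 9 rose (median −0.30). No rise reached 1 while 6 falls did. SOD2, the mitochondrial superoxide dismutase and a well-known NF-kB target, was at 1687, 1644 and 2308 in CO Cfib and 166, 254 and 220.5 in PH Cfib (log2 fold change −3.14, SE 0.20, adjusted p = 2.77e-05 from limma). The arachidonate-releasing phospholipase PLA2G4A was at 58.1, 75.3 and 71.6 in CO Cfib and 20.0, 25.3 and 24.8 in PH Cfib (log2 fold change −1.51, SE 0.13), and the lipopolysaccharide co-receptor CD14 at 6.96, 8.67 and 5.74 in CO Cfib and 2.03, 1.84 and 2.16 in PH Cfib (log2 fold change −1.42, SE 0.14). ZFP36, which speeds the decay of cytokine mRNAs, had a log2 fold change of 0.95, and the kinases MAP3K7 and IRAK1 of the Toll-like receptor pathway had 0.75 and 0.58.

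Complement and coagulation genes moved in both directions by large amounts. Of 61 genes 24 were listed, 16 rose and 8 fell (median 0.76), while their summed value fell, from 7926 to 10180.0 in CO Cfib and from 3508 to 4515 in PH Cfib. CFB alone held most of the sum in each CO library, so the fall of the sum is mainly that of this gene and not of the class. CFB, the factor B protease of the alternative pathway, was at 6724, 5328 and 7511 in CO Cfib and 1016, 1785 and 1956 in PH Cfib (log2 fold change −2.08, SE 0.29). C2, its counterpart in the classical pathway, was at 188, 135 and 119.9 in CO Cfib and 23.7, 32.8 and 33.3 in PH Cfib (log2 fold change −2.25, SE 0.20). For both, PH Cfib 1 was the lowest library. The thrombin inhibitor SERPINE2 was at 728, 1284 and 1216 in CO Cfib and 146, 171 and 162 in PH Cfib (log2 fold change −2.7, SE 0.22). In the other direction, C4A, the complement component that the classical pathway cleaves together with C2, was at 7.4, 5.16 and 3.52 in CO Cfib and 75.7, 71.2 and 73.5 in PH Cfib (log2 fold change 3.59, SE 0.21, adjusted p = 1.99e-05 from limma). C7, a part of the membrane attack complex, was at 0.228, 0.101 and 0.0758 in CO Cfib and 7.13, 7.14 and 6.9 in PH Cfib (log2 fold change 2.83, SE 0.08). The PH libraries differed little for both genes.

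Redox, iron and detoxification genes changed by large amounts in both directions. Of 87 genes 30 were listed, 16 rose and 14 fell, and 7 rises and 6 falls reached 1. Their median of 0.24 became −0.04 with the median of ratios. GSTO1, an omega-class glutathione transferase, was at 4.2, 3.74 and 6.81 in CO Cfib and 72.7, 72.6 and 81.1 in PH Cfib (log2 fold change 3.72, SE 0.19, adjusted p = 1.08e-05 from limma). MGST1, a membrane-bound glutathione transferase, went the other way and was at 183, 152 and 239.8 in CO Cfib and 25.8, 24.8 and 25.9 in PH Cfib (log2 fold change −2.84, SE 0.16). The aldehyde oxidase AOX1 was at 31.2, 21.9 and 19.6 in CO Cfib and 116, 110.2 and 109 in PH Cfib (log2 fold change 2.19, SE 0.16), and the epoxide hydrolase EPHX1 had a log2 fold change of 2.03. The transcription factor NFE2L3 was at 13, 9.23 and 12.2 in CO Cfib and 1.33, 1.45 and 1.4 in PH Cfib (log2 fold change −2.37, SE 0.13).

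**Figure D3:**
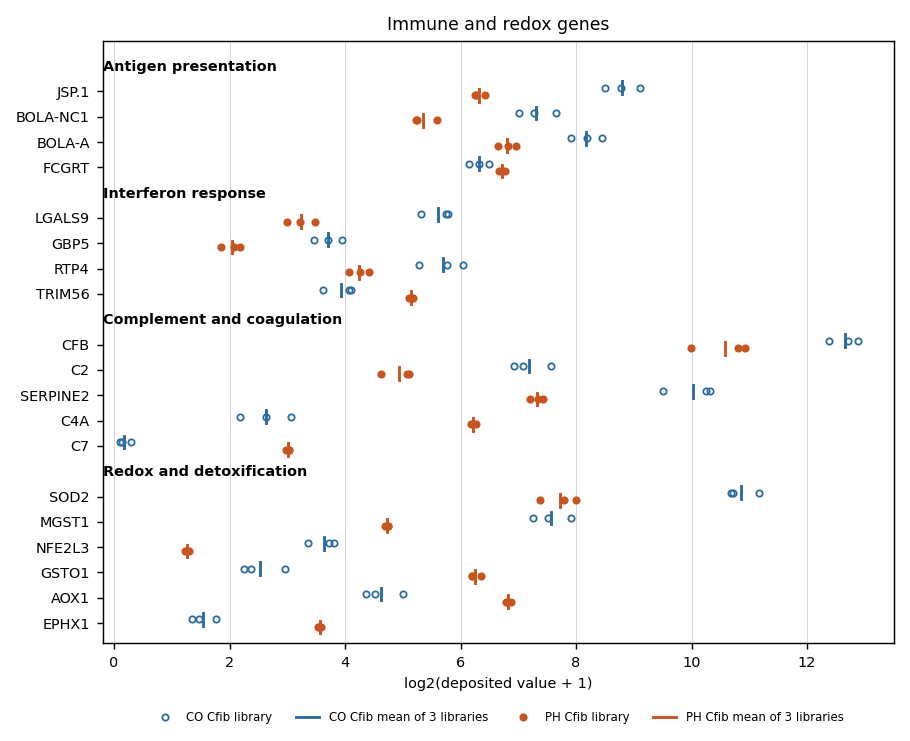
Each row is an immune or redox gene on a log2(deposited value + 1) axis, with single libraries as points and the means of 3 libraries as ticks (CO Cfib open blue, PH Cfib filled orange). JSP.1 (−2.48), SOD2 (−3.14) and CFB (−2.08) lie lower in PH Cfib, and C4A (3.59), C7 (2.83) and GSTO1 (3.72) higher.

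Contractile and actin-binding genes were mostly higher. Of 76 genes 36 were listed, 25 rose and 11 fell (median 0.67), with 12 rises and 1 fall of at least 1. ACTA2, the smooth muscle actin of myofibroblasts, was at 78.1, 71.9 and 109.8 in CO Cfib and 197, 199.6 and 208.7 in PH Cfib (log2 fold change 1.23, SE 0.15). FHL1, a LIM protein of muscle, was at 55.7, 55.7 and 57.9 in CO Cfib and 204, 195 and 194 in PH Cfib (log2 fold change 1.79, SE 0.05, adjusted p = 2.05e-06 from limma). PDLIM3 and PDLIM2, adaptors of actin bundles, had log2 fold changes of 2.62 and 1.72. Calponin CNN1, another smooth muscle gene, fell instead and was at 14.3, 19.7 and 20.1 in CO Cfib and 9.7, 10.9 and 11.7 in PH Cfib (log2 fold change −0.68, SE 0.14). The actin-binding COTL1 had a log2 fold change of −1.54 and the adhesion plaque protein PGM5 one of −0.93. Markers of mural cells, 5 of which are in this class, moved with it, 8 of 9 being higher, and their part was not tested.

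Of 42 YAP and TGF-beta pathway parts or immediate targets 17 were listed, 14 rose and 3 fell (median 0.80). ANKRD1, a nuclear and sarcomeric ankyrin repeat protein and YAP target, was at 110.1, 78.9 and 145 in CO Cfib and 652, 588 and 632 in PH Cfib (log2 fold change 2.52, SE 0.21). CTGF, the matricellular connective tissue growth factor, was at 127, 137 and 139.8 in CO Cfib and 475, 405 and 422 in PH Cfib (log2 fold change 1.68, SE 0.08, adjusted p = 1.08e-05 from limma). PMEPA1, a feedback inhibitor of TGF-beta signalling, was at 7.12, 8.6 and 3.44 in CO Cfib and 19.5, 20.9 and 17.6 in PH Cfib (log2 fold change 1.53, SE 0.28, and 1.2 without CO Cfib 3, the lowest library). The falls included the classical TGF-beta target TGFBI with a log2 fold change of −1.01, beside the circadian repressor BHLHE41 with −1.19.

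Developmental transcription factors were mostly higher. Of 109 genes 50 were listed, 44 rose and 6 fell (median 0.79), and 20 rises reached 1 against 19.7% of all genes. With the median of ratios the split was the same, 44 and 6. GATA5, a zinc finger factor of heart and epicardium development, was at 0.861, 0.659 and 0.711 in CO Cfib and 10.7, 10.4 and 8.72 in PH Cfib (log2 fold change 2.65, SE 0.10, adjusted p = 4.59e-06 from limma). TBX20, a T-box factor of the heart, was at 38.3, 39.5 and 5.49 in CO Cfib and 87.5, 80.2 and 78.3 in PH Cfib (log2 fold change 1.93, SE 0.69), and NFIA at 10.9, 8.87 and 1.54 in CO Cfib and 30.0, 28.4 and 27 in PH Cfib (log2 fold change 2.14, SE 0.56). CO Cfib 3 was far below the other CO libraries in TBX20 and NFIA, as it was in 9 of the 50 members, and without it their log2 fold changes were 1.06 (adjusted p = 8.7e-06 from limma) and 1.44 (1.38e-05). The class median without CO Cfib 3 was 0.70. TBX20 did not pass when any 1 PH library was left out (adjusted p from 0.0665 to 0.0766), or with the median of ratios (0.0597). Falls of at least 1 were called in 2 of the 50, ISL1 (−1.8) and PBX4 (−1.13), whose means were under 5 and which are named after their values were seen. Among the falls of genes above that level were −0.74 for the calcineurin-dependent NFATC4, −0.41 for ETS2 and −0.23 for the mesenchymal factor TWIST2, which did not pass without PH Cfib 1 or PH Cfib 3 (adjusted p up to 0.0607).

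Axon guidance and Eph-ephrin genes, which steer cell migration outside the nervous system too, had the highest class median. Among 19 listed genes 16 rose and 3 fell (median 1.05), with 10 rises of at least 1. The receptor EPHA7 was at 0.364, 0.243 and 0.111 in CO Cfib and 8.14, 7.77 and 7.44 in PH Cfib (log2 fold change 2.83, SE 0.10, adjusted p = 3.58e-06 from limma). The ROBO ligand SLIT2 was at 1.72, 1.47 and 0.843 in CO Cfib and 13.4, 12.8 and 12.8 in PH Cfib (log2 fold change 2.6, SE 0.15), and the semaphorin SEMA3D at 2.48, 1.62 and 0.389 in CO Cfib and 15, 12.7 and 12.2 in PH Cfib (log2 fold change 2.61, SE 0.32). All 3 genes were under 3 in every CO library, and CO Cfib 3 was the lowest library in each. NTNG2, a membrane-anchored netrin, fell and was at 63.1, 55.7 and 52.3 in CO Cfib and 26.4, 26 and 24.8 in PH Cfib (log2 fold change −1.11, SE 0.08), and the secreted netrin NTN4 had a log2 fold change of −0.43.

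Of 108 Wnt, Hedgehog and Notch genes 29 were listed, 24 rose and 5 fell (median 0.73), and no fall reached 1. Among receptors, the Wnt receptor FZD4 was at 12.2, 10.3 and 3.88 in CO Cfib and 38.9, 33.5 and 35.1 in PH Cfib (log2 fold change 2.03, SE 0.36, and 1.59 without CO Cfib 3, where it was under 1/2 of the other CO values), whereas FZD3 and FZD1 had log2 fold changes of −0.44 and −0.38. LFNG, the Fringe enzyme that modifies Notch receptors, was at 5.65, 3.61 and 6.03 in CO Cfib and 21.5, 22.1 and 20.7 in PH Cfib (log2 fold change 1.9, SE 0.16, adjusted p = 8.85e-05 from limma). Among nuclear effectors, TCF7L2 was at 34.6, 26.9 and 7.01 in CO Cfib and 60.1, 54.6 and 53.4 in PH Cfib (log2 fold change 1.51, SE 0.53), and without CO Cfib 3 its log2 fold change was 0.86. TCF7L2 did not pass with any 1 PH library left out (adjusted p from 0.0611 to 0.0728), or with the median of ratios (0.0623). CTNNB1, the gene of beta-catenin, was at 146, 147 and 139 in CO Cfib and 126, 129 and 129 in PH Cfib, a small fall (log2 fold change −0.17, SE 0.05) that did not pass with any 1 PH library left out (adjusted p from 0.0618 to 0.0666).

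Cell surface receptors were split, and the genes that act behind them were mostly higher. Of 22 listed G protein-coupled receptors 12 rose (54.5%, against 59.7% of all genes) and 10 fell, with 6 rises and 6 falls of at least 1. The nucleotide receptor P2RY2 was at 4.64, 6.25 and 3.25 in CO Cfib and 22.9, 21.6 and 23.1 in PH Cfib (log2 fold change 2.08, SE 0.19, adjusted p = 0.000109 from limma). PTGER4, the prostaglandin E2 receptor EP4, was at 10.4, 7.54 and 8.52 in CO Cfib and 2.09, 2.64 and 1.87 in PH Cfib (log2 fold change −1.61, SE 0.14). GPRC5A, an orphan receptor, had a log2 fold change of −1.51. Rises were also called for the adhesion receptor ELTD1 (1.75) and for GPR75 (1.74, and 1.37 without CO Cfib 3).

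Of 21 listed genes of G protein, cyclic nucleotide and RGS signalling 16 rose and 5 fell (median 0.88). PDE1A, a calcium-dependent cyclic nucleotide phosphodiesterase, was at 2.83, 1.9 and 1.66 in CO Cfib and 22.2, 21.5 and 21.7 in PH Cfib (log2 fold change 2.88, SE 0.14, adjusted p = 1.02e-05 from limma). NPR3, the clearance receptor of natriuretic peptides, was at 12.4, 10.4 and 4.15 in CO Cfib and 37, 33.8 and 32.5 in PH Cfib (log2 fold change 1.94, SE 0.34, and 1.52 without CO Cfib 3). The adenylate cyclase ADCY3 rose (1.55, and 1.18 without CO Cfib 3), whereas ADCY4 fell (−1.01). The falls of GPSM2, GNB5 and PDE6D, which bind or form G protein and phosphodiesterase complexes, ran from −0.52 to −0.31, and PDE6D did not pass without PH Cfib 1 (adjusted p = 0.0638 from limma).

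Ion channels, pumps and exchangers were higher in 35 of 43 listed genes (median 0.76). The potassium channel KCNK6 was at 3.74, 3.93 and 0.771 in CO Cfib and 9.93, 11.9 and 9.19 in PH Cfib (log2 fold change 1.71, SE 0.39), and the sodium-calcium exchanger SLC8A1 at 2.49, 3.09 and 0.428 in CO Cfib and 7.67, 7.36 and 7.11 in PH Cfib (log2 fold change 1.62, SE 0.38). In CO Cfib 3 both were under 1/2 of the other CO libraries, and without it their log2 fold changes were 1.22 and 1.15. FXYD1 (phospholemman), which regulates the sodium pump, was at 23.1, 18 and 35.2 in CO Cfib and 81.2, 78.5 and 78.7 in PH Cfib (log2 fold change 1.66, SE 0.22) and was highest in CO Cfib 3 among the controls. The gap junction gene GJA5 (connexin 40) fell, at 17.9, 30.3 and 18.7 in CO Cfib and 4.14, 4.62 and 4.64 in PH Cfib (log2 fold change −2.05, SE 0.20), while falls of the calcium channel subunit ORAI3 (−0.72) and the sodium-proton exchanger SLC9A5 (−0.69) were smaller.

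Of 56 listed solute carriers 39 rose and 17 fell (median 0.52), but 5 falls beside 12 rises reached 1. The zinc and manganese importer SLC39A8 was at 21.1, 23.2 and 25.4 in CO Cfib and 1.49, 1.8 and 1.96 in PH Cfib (log2 fold change −3.14, SE 0.11, adjusted p = 3.05e-06 from limma), a fall close to that of SLC16A3 above. The amino acid transporter SLC38A4 was at 2.98, 2.22 and 0.509 in CO Cfib and 14.5, 12.9 and 13.2 in PH Cfib (log2 fold change 2.44, SE 0.34), and the sulfate transporter SLC26A2 at 9.94, 8.93 and 1.83 in CO Cfib and 21.3, 21.1 and 18 in PH Cfib (log2 fold change 1.64, SE 0.50). CO Cfib 3 was under 1/2 of the other controls in both, and the log2 fold changes without it were 2.02 and 1.01.

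Adhesion and junction genes rose in 34 of 43 listed members and fell in 9 (median 0.69), with 17 rises of at least 1. The cadherin CDH8 was at 1.74, 1.82 and 1.38 in CO Cfib and 12.1, 12.4 and 11.8 in PH Cfib (log2 fold change 2.31, SE 0.09, adjusted p = 5.07e-06 from limma), and the integrin subunit ITGA9 at 2.32, 1.67 and 0.897 in CO Cfib and 10.6, 11.1 and 11.5 in PH Cfib (log2 fold change 2.24, SE 0.20). NCAM1, a neural cell adhesion molecule, was at 17.9, 14.2 and 3.34 in CO Cfib and 47.4, 45.1 and 41.8 in PH Cfib (log2 fold change 2.09, SE 0.52, and 1.43 without CO Cfib 3). CADM1, an immunoglobulin adhesion molecule, fell and was at 29.2, 32.9 and 19.6 in CO Cfib and 5.95, 6.63 and 6.37 in PH Cfib (log2 fold change −1.92, SE 0.18), as did ESAM of endothelial junctions (−1.08).

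**Figure D4:**
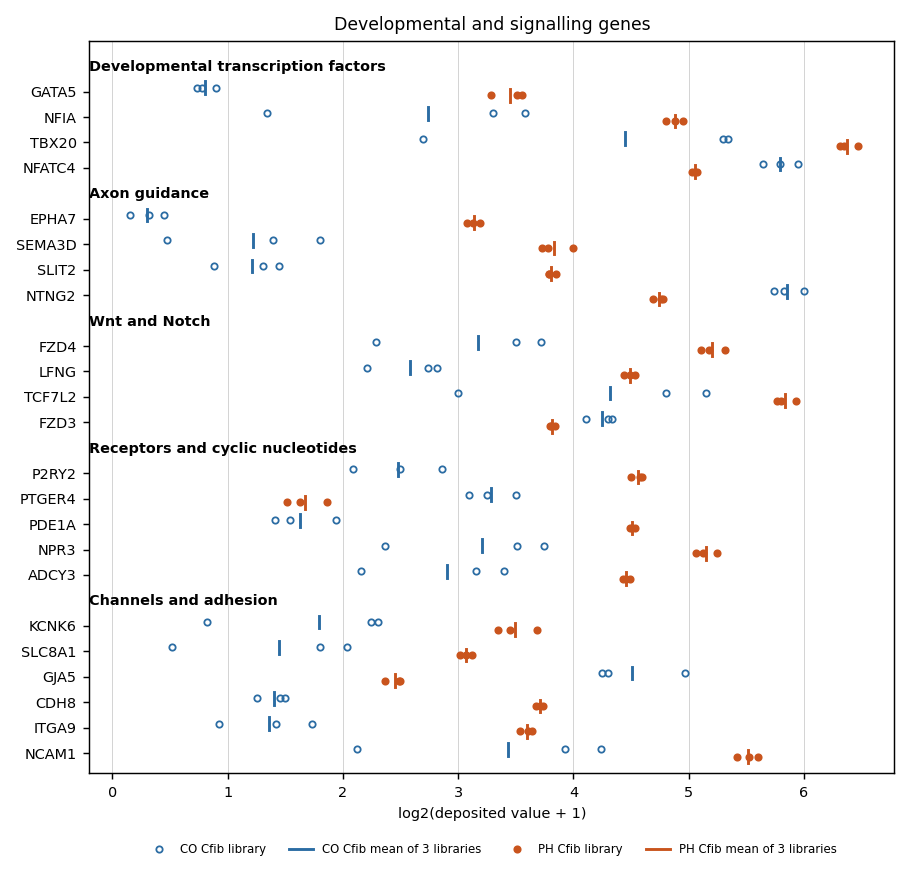
Each row is a transcription factor, guidance, Wnt, receptor, channel or adhesion gene on a log2(deposited value + 1) axis, with single libraries as points and the means of 3 libraries as ticks (CO Cfib open blue, PH Cfib filled orange). The lowest CO point of NFIA, TBX20, TCF7L2 and NCAM1 is CO Cfib 3, which widens their CO spread, whereas GATA5 (2.65), EPHA7 (2.83) and PDE1A (2.88) have CO points that lie close together.

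Small GTPase and kinase regulators leaned higher by about the background. Of 67 listed regulators of small GTPases 44 rose, 21 fell and 2 did not pass (median 0.46), and 13 of 67 rises reaching 1 is near the 19.7% of all genes. RHOU, an atypical small GTPase, was at 1.8, 1.02 and 1.76 in CO Cfib and 20.2, 18.4 and 19.8 in PH Cfib (log2 fold change 3.03, SE 0.14, adjusted p = 8.81e-06 from limma). Among the falls were the exchange factors ARHGEF39 (−2.6) and NGEF (−2.31) and the Rac activator ELMO1 (−2.47).

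Of 49 listed MAP kinase, phosphatase and immediate early genes 33 rose and 15 fell (median 0.54). Among the rises were negative regulators, SPRY1 at 14.2, 14.2 and 15 in CO Cfib and 62.3, 58.4 and 57.7 in PH Cfib (log2 fold change 1.97, SE 0.06, adjusted p = 2.05e-06 from limma) and the phosphatase PTPRR at 3.91, 3.54 and 4.01 in CO Cfib and 24, 22.1 and 23 in PH Cfib (log2 fold change 2.32, SE 0.08). The immediate early genes DUSP1 and ATF3 fell, DUSP1 at 89.5, 109 and 93.6 in CO Cfib and 51.8, 50.2 and 50.4 in PH Cfib (log2 fold change −0.92, SE 0.08) and ATF3 with a log2 fold change of −0.94. The JNK scaffold MAPK8IP1 had one of −1.1.

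Among 29 listed genes of apoptosis, p53 targets and growth arrest 19 fell and 10 rose (median −0.39). BIRC5 (survivin), which is made in dividing cells, was at 31.6, 41.2 and 51 in CO Cfib and 2.77, 3.61 and 3.51 in PH Cfib (log2 fold change −3.28, SE 0.18), and LMNB1 of the nuclear lamina at 22, 32.5 and 29.1 in CO Cfib and 5.46, 5.96 and 6.08 in PH Cfib (log2 fold change −2.06, SE 0.14). The cell cycle inhibitor CDKN1C (p57) was at 3.08, 2.39 and 3.92 in CO Cfib and 15.4, 12.2 and 12.7 in PH Cfib (log2 fold change 1.82, SE 0.16), and CDKN2B (p15) and the Fas inhibitor FAIM2 had log2 fold changes of 0.95 and 1.62.

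Nuclear classes changed little in the middle and by more at the edges. Of 44 listed histone and chromatin genes 23 rose and 21 fell (median 0.16, and −0.11 with the median of ratios). The linker histone gene H1F0 was at 91, 96.1 and 92 in CO Cfib and 21.2, 21.7 and 22.5 in PH Cfib (log2 fold change −2.05, SE 0.05, adjusted p = 1.24e-06 from limma). The histone chaperones of replication fell, ASF1B with a log2 fold change of −2.69 and CHAF1A with −1.51. JADE1, of a histone acetyltransferase complex, was at 22.6, 21.3 and 4.64 in CO Cfib and 51.8, 49.3 and 46.6 in PH Cfib (log2 fold change 1.8, SE 0.53, and 1.13 without CO Cfib 3), and the chromatin remodeller SMARCA1 had a log2 fold change of 1.16.

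RNA splicing, helicase and RNA-binding genes made up 51 listed genes, of which 33 fell, 15 rose and 3 did not pass (median −0.23). None moved by 1 in either direction, against 34.0% of all listed genes. Changes that were called included rises of 0.95 for PCBP4 and 0.85 for LARP6, which binds collagen mRNAs, and falls of −0.75 for the helicase DDX41 and −0.73 for DHX58 (LGP2), a sensor of viral RNA.

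Small chaperone and biosynthesis classes showed opposed members. Among 15 listed heat shock, chaperone and proteasome genes 9 fell and 5 rose (median −0.38). The small heat shock protein HSPB8 was at 47.1, 39.9 and 44 in CO Cfib and 10.1, 9.22 and 9.89 in PH Cfib (log2 fold change −2.06, SE 0.08, adjusted p = 4.59e-06 from limma), whereas HSPB6, of the same family, was at 195, 164 and 106 in CO Cfib and 365, 343 and 339.8 in PH Cfib (log2 fold change 1.21, SE 0.21). Of 60 genes of amino acid supply, one-carbon metabolism and ATF4 targets 26 were listed, 14 called higher and 11 lower. The mitochondrial arginase ARG2 was at 36.2, 43.1 and 47.6 in CO Cfib and 9.63, 11.9 and 12.1 in PH Cfib (log2 fold change −1.82, SE 0.13) and the glycine decarboxylase GLDC at 14.9, 21.2 and 12.8 in CO Cfib and 2.11, 2.01 and 2.25 in PH Cfib (log2 fold change −2.44, SE 0.18), while the pseudokinase TRIB3, an ATF4 target, rose and was at 42.9, 33.3 and 34.2 in CO Cfib and 78.6, 77.6 and 71.3 in PH Cfib (log2 fold change 1.03, SE 0.11). Of 37 aminoacyl-tRNA synthetases 4 were listed, MARS as a rise of 0.29 and LARS and TARS2 as falls of −0.36 and −0.24. MARS did not pass with the median of ratios (0.00, adjusted p = 0.941 from limma), nor TARS2 without PH Cfib 2 or PH Cfib 3 (adjusted p up to 0.0762).

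Glycan-modifying and vesicle genes held large single changes. Of 49 listed glycosyltransferases and sulfotransferases 36 rose, 9 fell and 4 did not pass (median 0.51). GALNT16 and GALNT15, which both start O-glycan chains, moved apart, GALNT16 at 9.96, 10.7 and 8.72 in CO Cfib and 44.7, 41.9 and 40.2 in PH Cfib (log2 fold change 2.0, SE 0.09) and GALNT15 at 7.93, 6.53 and 6.66 in CO Cfib and 0.880, 0.850 and 0.806 in PH Cfib (log2 fold change −2.12, SE 0.09). The sulfotransferases CHST2 and CHST1 did the same, with log2 fold changes of 2.02 and −1.46. ST3GAL5, which makes the ganglioside GM3, had one of −1.31, and the polysialyltransferase ST8SIA4 one of 1.91. Of 44 listed vesicle genes 23 rose and 20 fell, with a median of 0.27 that became −0.02 with the median of ratios. The endocytic adaptor DAB2 was at 20.9, 14.6 and 9.85 in CO Cfib and 85.3, 75.4 and 76.1 in PH Cfib (log2 fold change 2.37, SE 0.24), and the tetraspanins TSPAN13, TSPAN15 and TSPAN12 fell by log2 fold changes from −3.01 to −1.3.

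Markers of other cells were read in the same table to see what the cultures could hold. Of 32 fibroblast markers 15 were listed, 13 higher and 2 lower. COL1A2, a chain of type I collagen, was at 2532, 1862 and 2052 in CO Cfib and 6232, 6171 and 5921 in PH Cfib (log2 fold change 1.52, SE 0.17), and FBLN1 (fibulin) at 109, 120.3 and 80.3 in CO Cfib and 370.5, 390.3 and 378 in PH Cfib (log2 fold change 1.89, SE 0.15). PI16, a marker of adventitial fibroblasts, was at 0.0453, 0.0321 and 0 in CO Cfib and 5.98, 5.74 and 6.12 in PH Cfib. In CO Cfib 3, FN1 and LOX were under 1/2 of the other CO libraries, and without it their log2 fold changes were 1.23 and 1.84 in place of 1.81 and 2.47. Collagen transcripts were thus abundant in all 6 libraries, as the fibroblast label has it. MEOX1 and TWIST2 were the lower members (−0.46 and −0.23).

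Of 24 mesothelial and epicardial markers 11 were listed, and all 11 were called higher in PH Cfib (58.2% of all genes were). Their summed value ran from 49.6 to 81.1 in CO Cfib and from 417 to 443 in PH Cfib, and ALDH1A1 alone made up most of it in every library. MSLN (mesothelin) was at 6.06, 3.31 and 8.26 in CO Cfib and 55, 58.7 and 54.7 in PH Cfib (log2 fold change 3.12, SE 0.26, adjusted p = 7.86e-05 from limma), and ALDH1A1, a retinaldehyde dehydrogenase, at 41.3, 29.7 and 55.5 in CO Cfib and 337, 313 and 313 in PH Cfib (log2 fold change 2.94, SE 0.21). The simple epithelial keratins were low in CO Cfib, and KRT18 and KRT8 were near or at 0 there. KRT19 was at 1.08, 0.763 and 2.06 in CO Cfib and 9.44, 8.96 and 10.5 in PH Cfib (log2 fold change 2.25, SE 0.20), KRT18 at 0.0518, 0 and 0 in CO Cfib and 3.34, 5.83 and 5.49 in PH Cfib, and KRT8, listed at 0 throughout CO Cfib, at 1.24, 1.48 and 1.07 in PH Cfib. GPM6A had a log2 fold change of 2.06, and the epithelial cadherin CDH1 was at 0.658, 0.122 and 0.152 in CO Cfib and 1.96, 1.68 and 1.93 in PH Cfib. Other defining markers of the list, among them WT1, CALB2, BNC1 and LRRN4, were not listed, so nothing is known of them here. More mesothelial cells and more of these transcripts per cell cannot be told apart in bulk RNA, and the part of either in the rises of GATA5, C7 and adhesion genes was not tested.

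Of 47 macrophage and myeloid markers 23 were listed, 15 higher and 8 lower, and the summed value ran from 194 to 247 in CO Cfib and from 109 to 122 in PH Cfib. Without GPNMB the sum of the other 22 ran from 73.7 to 79.0 in CO Cfib and from 73.9 to 87.9 in PH Cfib, so the groups overlapped. The higher members were low. FCER1G, an Fc receptor chain, was at 4.09, 2.01 and 3.14 in CO Cfib and 8.29, 7.67 and 6.64 in PH Cfib, CD68 at 2.34, 2.36 and 2.02 in CO Cfib and 3.06, 4.04 and 3.74 in PH Cfib and TYROBP at 0.373, 0 and 0.249 in CO Cfib and 0.838, 1.24 and 1.07 in PH Cfib. In CO Cfib the complement genes C1QA and C1QB and the chemokines CCL3 and CCL4 were listed at 0 throughout, and C1QA was at 2.76, 2.63 and 1.92 and CCL3 at 5.68, 12.9 and 9.79 in PH Cfib, so no fold is given. The lower members included GPNMB, a transmembrane glycoprotein, at 129, 173 and 117 in CO Cfib and 34.9, 33.8 and 33.5 in PH Cfib (log2 fold change −1.98, SE 0.14). CSF1R, PTPRC and AIF1 were not listed. The part of these markers in the lower MHC class I and inflammatory genes was not tested.

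Of 35 endothelial markers 14 were listed, 8 higher and 6 lower, with PECAM1, CDH5, VWF and KDR not listed. ESM1 was at 89.8, 163 and 176 in CO Cfib and 20.6, 25.5 and 25.5 in PH Cfib (log2 fold change −2.48, SE 0.26) and PEAR1 at 12.4, 9.63 and 6.39 in CO Cfib and 35.5, 33 and 32.5 in PH Cfib (log2 fold change 1.77, SE 0.21). Of 18 mural markers 9 were listed, 8 higher and 1 lower, RGS5 at 0.460, 0.290 and 0.227 in CO Cfib and 3.94, 3.59 and 3.09 in PH Cfib and KCNJ8 at 0.702, 0.818 and 0.965 in CO Cfib and 4.75, 4.67 and 4.34 in PH Cfib, with CNN1 the lower one. Their summed value ran from 117 to 161 in CO Cfib and from 289.7 to 297 in PH Cfib, and ACTA2 alone made up most of it in every library. RGS5 and KCNJ8 were under 1 in every CO library. All 4 listed adipocyte markers were higher, LPL at 10.4, 7.85 and 9.2 in CO Cfib and 19.8, 18.1 and 18.5 in PH Cfib, and 4 of 7 listed Schwann and neural markers were, SYT4 at 33.2, 31.6 and 33.6 in CO Cfib and 83.7, 76.2 and 77.3 in PH Cfib. Of 32 cardiomyocyte markers only FABP3 and TBX20 were listed, in opposite directions, and of 24 lymphocyte markers only CD247, at 2.82, 2.77 and 4.33 in CO Cfib and 5.61, 4.82 and 5.38 in PH Cfib, which did not pass with the median of ratios (adjusted p = 0.101 from limma).

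**Figure D5:**
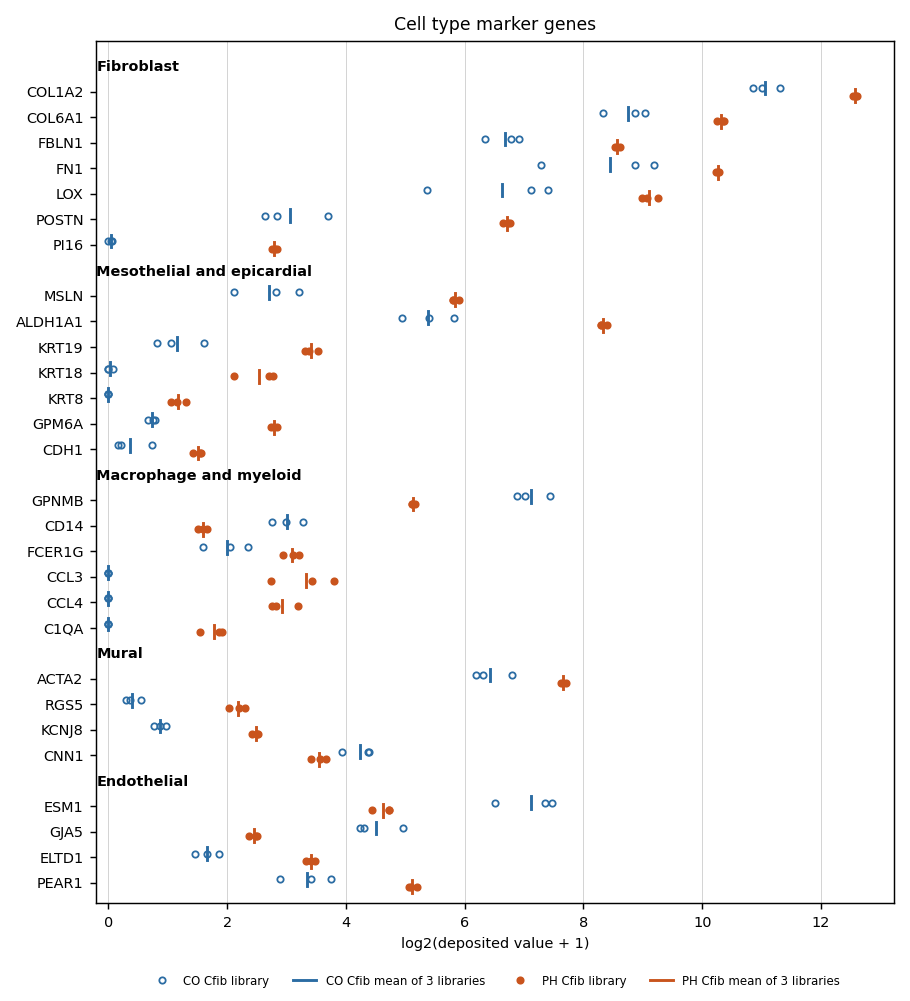
Each row is a cell type marker on a log2(deposited value + 1) axis, with single libraries as points and the means of 3 libraries as ticks (CO Cfib open blue, PH Cfib filled orange). Collagen genes are high in all 6 libraries, the keratins KRT18 and KRT8, CCL3, CCL4 and C1QA lie at or near 0 in CO Cfib, and GPNMB, CD14, ESM1 and GJA5 are lower in PH Cfib.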

How the data were processed

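RNA of 3 CO Cfib and 3 PH Cfib cultures was depleted of ribosomal RNA and sequenced by the authors, who aligned reads to bosTau8 with HISAT2 and StringTie and state a normalization of DESeq2. They kept genes with a value above 1 in a condition and selected those with p under 0.05 by an unequal-variance t-test, which they call nonparametric. An adjustment of these p-values for multiple comparisons is also stated. The deposited signal of the 2115 genes is scaled by gene length as FPKM or TPM are, and its unit was not settled, so depth is unknown and no interval for counting error is given. Whether counting used strand is not given in the sources used here. The table of rat myocytes was not used. No bovine reference was used, so no sequence or position is given, and 4 symbols that had become numbers were left as they are.

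The values were compared as log2(value + 1) in R 4.3.3 by limma 3.58.1 (two-sided, eBayes using a mean-variance trend) and Benjamini-Hochberg adjustment over all 2115 genes at a threshold of 0.05. No replicate block was used. Tables and plots used Python 3.11.15 with pandas 2.3.3, numpy 2.4.6 and matplotlib 3.10.9. The 34 classes and 9 marker lists were written from general knowledge, some as symbol patterns with no list size, and 105 genes are in more than 1. Members and lists were chosen with earlier results of these data known. By rule the text names up to 3 called rises and 3 falls per class whose higher group mean is 5 or more, 10 each outside the lists (mean of at least 10), listed markers, genes at 0 in 1 group (mean of at least 1 in the other) and families with members called in both directions by at least 1. Some genes that the rule names are not reported here. The alternatives were pseudocounts of 0.1 and 10, a minimum mean of 5, the median of ratios, no trend, an unequal-variance test, a replicate block, averaged PH libraries and each library left out. On simulated data of 2115 genes with equal spread in both groups and no prior selection, limma called 197 of 200 changed genes and 9 of the unchanged ones. The real groups differ in spread and the genes were preselected, so these counts give no error rate for the real comparison.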

Additional observations from a re-analysis of the deposited data

How the results depend on the processing

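Of the 2115 listed genes 2063 passed, and 1910 to 2052 passed with 1 library left out. With the PH libraries averaged into 1 sample, which leaves their own spread out, 1038 passed, 529 higher and 509 lower. At a pseudocount of 10, which shrinks low genes, 273 passed with an absolute log2 fold change of at least 1, 142 higher and 131 lower, against 720, 417 and 303. The other alternatives kept each of these counts within 1.5 times, but the median of ratios gave 840 higher and 869 lower in place of 1230 and 833. It turned the medians of redox (−0.038), chromatin (−0.11) and vesicle genes (−0.016) and the log2 fold change of ERLIN1 (−0.012), and no other alternative turned a class median or a named gene. Of 312 named genes, 79 did not pass with the PH libraries averaged, 39 by the unequal-variance test and 14 with the median of ratios.

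The replicate numbers gave correlations of 0.258, 0.0312 and 0.259 between the deviations of equally numbered libraries. Each PH library correlated best with the CO library of its own number, though PH Cfib 2 hardly so (0.0312, against 0.0286 with CO Cfib 3). CO Cfib 2 correlated best with PH Cfib 1 (0.102). Whether equal numbers mark a shared batch is not given and was not tested. A fit with the replicate number as a block called 1983 genes, 1191 higher and 792 lower, and 3 named genes did not pass. Depth is unknown, genes outside the table cannot be called unchanged, and values under 1 are given only for genes that exceed 1 in at least 1 library.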

Other observations

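Gene families with members in both directions were common enough to list. Of 265 families with at least 2 listed members (symbols alike up to the last number), 24 held a called rise and a called fall of at least 1. In the CXCL chemokines, CXCL13 was at 0, 0 and 0.0485 in CO Cfib and 12.7, 13.1 and 12.3 in PH Cfib (log2 fold change 3.75, SE 0.07), and CXCL2 was at 1020.1, 1101 and 1751 in CO Cfib and 174, 261 and 239 in PH Cfib (log2 fold change −2.5, SE 0.25). In the TNF ligands, TNFSF18 was at 45.7, 23.2 and 25.9 in CO Cfib and 171, 159.9 and 167 in PH Cfib (log2 fold change 2.42, SE 0.24), and TNFSF13B, the B cell survival factor BAFF, was at 20.2, 14.2 and 16 in CO Cfib and 0.394, 0.622 and 0.240 in PH Cfib. Among matrix metalloproteases MMP9 was at 0.413, 0.993 and 0.714 in CO Cfib and 8.69, 11.5 and 8.85 in PH Cfib (log2 fold change 2.65, SE 0.16) and MMP19 at 20.1, 22.8 and 16.9 in CO Cfib and 9.21, 9.3 and 9.63 in PH Cfib (log2 fold change −1.0, SE 0.11). The syntaxins STX1A and STX3 had log2 fold changes of 1.88 and −2.07, the Rab proteins RAB3D and RAB33A of 1.11 and −1.8, the ubiquitin ligases RNF125 and RNF144B of 1.48 and −2.21, and the C1q-like C1QTNF6 and C1QTNF1 of 1.36 and −1.1. Without CO Cfib 3 the log2 fold change of RNF125 was 0.96 and that of RAB3D 0.78, both under the size that listed their families. STX3 was under 1/2 of both other CO libraries in CO Cfib 3 as well, and without that library its log2 fold change was −2.35. The glucose transporter SLC2A10 rose (1.54, and 1.11 without CO Cfib 3) while SLC2A1 fell. Members were paired by symbol only, and a shared stem does not always mean a shared family.

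Outside the classes, SPARCL1, a secreted relative of SPARC, was at 0.570, 0.375 and 0.724 in CO Cfib and 45.3, 46.9 and 47.3 in PH Cfib (log2 fold change 4.94, SE 0.10), and MGP, an inhibitor of calcification, at 2.86, 0.760 and 3.69 in CO Cfib and 85.2, 87 and 96.7 in PH Cfib (log2 fold change 4.83, SE 0.35). ULBP21, a bovine ligand of the natural killer cell receptor NKG2D, was at 0.370, 0.295 and 0.431 in CO Cfib and 24.8, 28.4 and 30.0 in PH Cfib (log2 fold change 4.39, SE 0.10). Other leading rises included IGF2 (4.58) and COL18A1 (4.24), and the leading falls included the ubiquitin-conjugating UBE2C (−4.67), cyclin B1 CCNB1 (−4.18) and the PCNA-binding KIAA0101 (−3.98).

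In 11 genes all libraries of 1 group were listed at 0, 7 in CO Cfib and 4 in PH Cfib, so no fold is given. In CO Cfib these were, beside KRT8, C1QA, C1QB, CCL3 and CCL4, the defensin gene DEFB5, at 1.5, 1.85 and 2.67 in PH Cfib, and C10H14orf53, at 6.46, 6.24 and 6.96. CCL4 was at 6.06, 8.17 and 5.77 in PH Cfib. In PH Cfib they were TCTEX1D1, at 9.07, 9.65 and 9.06 in CO Cfib, the myelin gene MAG, at 0.992, 1.31 and 1.57, the dopamine receptor gene DRD3, at 1.16, 1.43 and 0.678, and CT, at 0.955, 1.55 and 1.65.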
